A study of Mus musculus with 583 samples.

Results

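The chaperonin TRiC, also called CCT, is built from 8 related subunits, and its messages were followed in single mouse embryonic stem cells prepared with 6 RNA-seq methods. The members were the rows of the deposited count table for Tcp1, Cct2, Cct3, Cct4, Cct5, Cct6a, Cct7 and Cct8, found by Ensembl gene ID through the GENCODE M21 annotation: 8 of the 38924 mouse genes in the table. All 8 were among the 14293 genes that passed the filter on low counts. The question was whether the subunits keep a fixed ratio across methods and across cells.

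All cells were J1 embryonic stem cells, an established mouse line, kept in 2i/LIF medium, which holds such cells in the naive pluripotent state with inhibitors of 2 kinases and the cytokine LIF. No genotype or treatment differed between groups, so the groups are the library methods, each with replicates A and B. Smart-seq on the Fluidigm C1 chip and Smart-seq2 sample reads along the whole transcript and gave read counts in 130 and 157 cells. CEL-seq2, run on the same kind of chip (71 cells), and MARS-seq (65 cells) tag the 3′ end and amplify by in vitro transcription. SCRB-seq on sorted cells (84 cells) and Drop-seq in droplets (76 cells) also tag the 3′ end and amplify by PCR. These 4 tag methods gave counts of unique molecular identifiers (UMIs), which mark single cDNA molecules. The labels do not say that A and B were separate cultures, so p-values measure the spread between libraries, which may be technical.

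TRiC is a double ring in the cytosol. Each ring holds every subunit once in a fixed order, and newly made proteins fold inside the closed cavity at the cost of ATP. Actin and tubulin are its best known clients, together with many proteins of WD40 propeller fold such as the beta subunits of G proteins and the cell cycle protein Cdc20. Prefoldin hands unfolded actin and tubulin to the ring, and phosducin-like proteins assist it. The subunits differ mainly in the domain that binds clients and in how readily they use ATP: Cct2, Cct4, Cct5 and Cct7 bind it strongly, and Cct3, Cct6a and Cct8 weakly. Dividing cells carry much of the complex.

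The libraries held 29 to 80 cells and 583302 to 34984056 counts. A cell carried a median of 2198 to 4735 subunit reads in the full-length libraries and of 67 to 277 subunit UMIs in the tag libraries. All 8 markers of naive stem cells (Pou5f1, Sox2, Nanog, Zfp42, Esrrb, Klf4, Tfcp2l1 and Dppa5a) had counts in every library, with a summed level of 2635 to 6981 CPM (counts scaled to the library's total). Fibroblast markers summed to at most 38.02, primitive endoderm markers to at most 33.2 and trophectoderm markers to at most 113 CPM. Between 0 and 66 cell names recurred in both replicates of a method. The library Smart-seq / C1 B stood apart: the 8 subunits took 1.53% of its counts, against 0.821% in Smart-seq / C1 A and 0.888% to 0.946% in Smart-seq2. In sums over the cells of a library, fewer cells expressing a gene and less RNA per cell cannot be told apart.

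The gene models set one subunit apart. On GRCm38, the mm10 assembly, Cct6a lies on the plus strand at chr5:129786998-129846371, and an unsequenced gap of 50000 bases sits inside it at chr5:129794711-129844710. Exon 10 ends 211 bases before that gap and exon 11 starts 259 bases after it, which leaves 800 transcript bases, the 3′ end included, beyond the gap. GENCODE M21 lists the gene as a processed transcript, and 94% of its RefSeq transcript was aligned to the assembly. The exon edges on both sides are shown because the 3′ end, which tag methods count, lies beyond the gap, with exon bases in capitals and intron bases in lower case.
exon 10 end, chr5:129794470-129794529: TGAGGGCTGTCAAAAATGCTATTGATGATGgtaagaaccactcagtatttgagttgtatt
exon 11 start, chr5:129844940-129844999: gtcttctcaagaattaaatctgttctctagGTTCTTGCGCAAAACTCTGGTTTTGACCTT
The other 7 genes hold no gap. They lie at chr17:12915701-12925067 (Tcp1, plus strand), chr10:117051001-117063814 (Cct2, minus), chr3:88297116-88321767 (Cct3, plus), chr11:22990519-23003780 (Cct4, plus), chr15:31590800-31601804 (Cct5, minus), chr6:85451514-85468475 (Cct7, plus) and chr16:87483326-87495873 (Cct8, minus). Their gene models span 11 to 16 exons. Cct3 shares 13.1% and Cct7 7.55% of their 31-base words with other genes, mostly processed pseudogenes, so their counts are less certain. No single near copy held more than 7.90% of its subunit's counts in any library, and copies of the same subunit together held more. In Drop-seq A, Cct3-ps1 and Gm11516, both copies of Cct3, held 30 and 24 counts. Tcp1, Cct6a, Cct7 and Cct8 overlap genes on the opposite strand (Mrpl18 and Acat3, Psph, Pradc1, and Usp16), and whether the counting used strand is not given in the sources used here.

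Every subunit was more abundant in CPM in the full-length than in the tag methods, and 1 of them, Cct6a, was under 50 CPM in CEL-seq2. Levels below are CPM after TMM scaling, which corrects for differences in composition between libraries. Summed over the 8 subunits, the level was 7224 in Smart-seq / C1 A, 17089 in Smart-seq / C1 B, 7885 and 7994 in Smart-seq2 A and B, and between 3458 and 5292 in the 8 tag libraries. The full-length mean was 10048 ± 4706 (SD, n = 4) and the tag mean 4148 ± 645 (SD, n = 8). These groups did not overlap. A joint edgeR quasi-likelihood test across the 6 methods called 8 of 8 subunits (Benjamini-Hochberg adjusted p over 14293 genes below 0.05), where 65.4% of all genes tested were called. Methods therefore differed for most genes, and the count of subunits is read against that share.

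**Figure D1:**
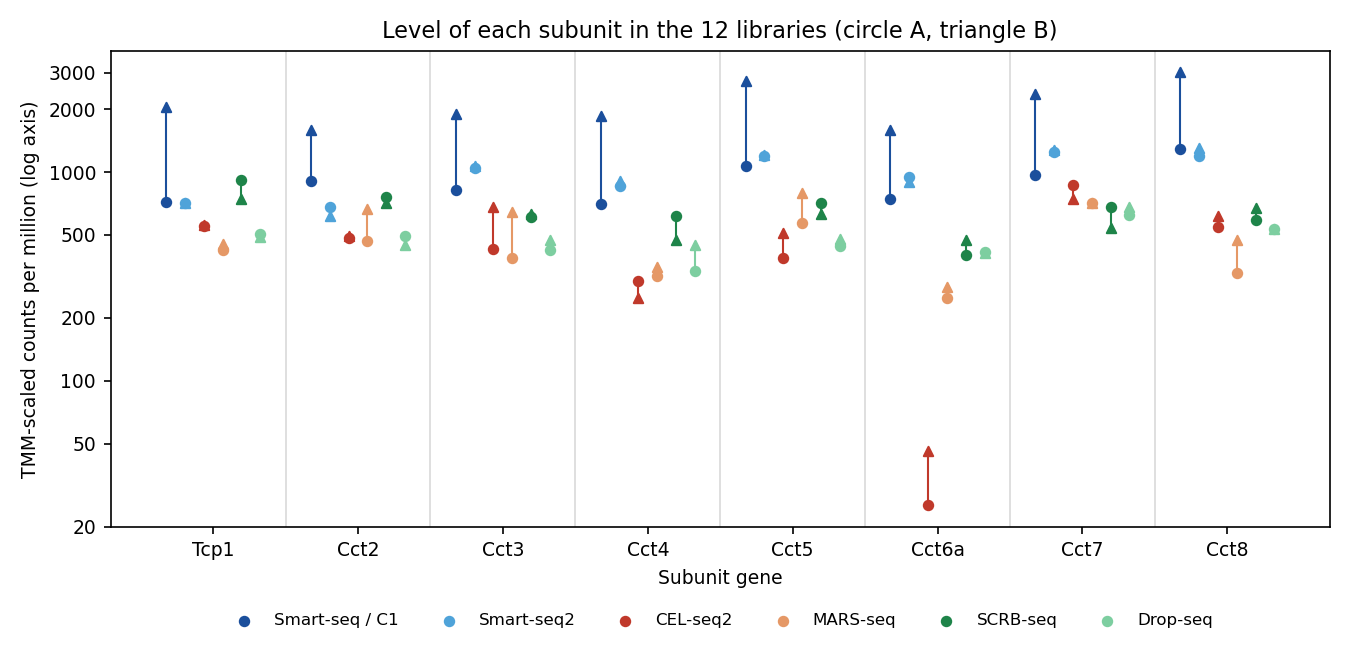
TMM-scaled CPM (log axis) of each subunit in the 12 libraries, coloured by method, with a circle for replicate A and a triangle for B joined by a line. Smart-seq / C1 B is the highest library for every subunit, and Cct6a in CEL-seq2 sits at 25.3 and 46.3, below every other value shown.

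Between full-length and tag methods, 8 of 8 subunits were higher, and 25.6% of all genes tested were called higher (48.8% either way). The median log2 fold change of the subunits was 1.31, against 0.21 for all genes. Reads along a transcript scale with its length while UMIs do not, so read counting, transcript coverage and chemistry cannot be told apart in this contrast. For 6 of the 8 subunits no full-length library overlapped a tag library, where 17.5% of all genes were so separated in either direction. Tcp1 and Cct2 were the exceptions.

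Cct8, the theta subunit, stood at 1286 and 3006 CPM in Smart-seq / C1 A and B and at 1193 and 1310 in Smart-seq2. Its 8 tag libraries ran from 329.5 over a median of 538 to 672, which gives a log2 fold change of 1.63 (SE 0.21, edgeR adjusted p = 3.67e-06). Cct4, the delta subunit, stood at 707 and 1850 in Smart-seq / C1 and at 862 and 905 in Smart-seq2. Every full-length library of both genes lay above every tag library. The tag libraries of Cct4 spanned 249 to 615 with a median of 342, and its log2 fold change was 1.51 (SE 0.22, edgeR adjusted p = 1.73e-05). Cct5, the epsilon subunit, reached 1064 and 2743 with Smart-seq / C1, while Smart-seq2 gave 1188 and 1212, against 389 to 797 in the tag libraries with a median of 541. Its log2 fold change was 1.44 (SE 0.22, edgeR adjusted p = 2.69e-05). For these 3 subunits Smart-seq / C1 B was more than 2-fold above Smart-seq / C1 A, a wider gap than between the Smart-seq2 replicates.

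Cct3, the gamma subunit, stood at 824 and 1889 CPM in Smart-seq / C1 and at 1051 and 1066 in Smart-seq2, and its tag libraries spanned 387 to 679 around a median of 539.95. Its log2 fold change was 1.18 (SE 0.22, edgeR adjusted p = 0.000271). Cct7, the eta subunit, reached 969 and 2360.4 with Smart-seq / C1, while Smart-seq2 gave 1253 and 1278, against 539 to 865 with a median of 696 in the tag libraries. Its log2 fold change was 1.07 (SE 0.21, edgeR adjusted p = 0.000366). Both were higher in all 4 full-length libraries. Tcp1, the alpha subunit for which the complex was first named, stood at 723 and 2045 in Smart-seq / C1, at 712 and 710.4 in Smart-seq2 and between 424 and 919 in the tag libraries, with a median of 528. SCRB-seq A (919) and SCRB-seq B (739.6) lay above 3 of its 4 full-length libraries. Its log2 fold change was 0.82 (SE 0.22, edgeR adjusted p = 0.00515), and it moved to 0.51 without Smart-seq / C1 B and to 1.26 without Smart-seq / C1 A. Cct2, the beta subunit, stood at 908 and 1595 in Smart-seq / C1, at 678 and 614 in Smart-seq2 and between 447 and 758 in the tag libraries, with a median of 494. Its groups overlapped too, and its log2 fold change was 0.69 (SE 0.19, edgeR adjusted p = 0.00561), or 1.05 without MARS-seq B. All 8 subunits were still called with each of the 12 libraries left out in turn.

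Cct6a, the zeta subunit, had the widest range. It stood at 742 and 1600.2 CPM in Smart-seq / C1 A and B and at 948 and 899 in Smart-seq2 A and B. CEL-seq2 A and B gave 25.3 and 46.3, MARS-seq 249 and 281, SCRB-seq 402 and 473, and Drop-seq 413 and 409.6. The 4 read libraries were highest, the 6 tag libraries other than CEL-seq2 lay between, and both CEL-seq2 libraries were far below. The full-length to tag log2 fold change was 2.35 (SE 0.21, edgeR adjusted p = 4.15e-08), the highest of the 8 with CEL-seq2 included. No estimate per library total is given without both CEL-seq2 libraries, so this rank may rest on them.

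Among tag methods, amplification by in vitro transcription against PCR called 1 of 8 subunits, against 22.0% of all genes tested. That gene was Cct6a, with a log2 fold change of -2.11 (SE 0.27, edgeR adjusted p = 4.28e-05), in which the CEL-seq2 libraries lay far below those of MARS-seq. The other 7 lay between -0.60 (Cct4) and 0.26 (Cct7) and did not pass. Without Smart-seq / C1 A, and likewise without Smart-seq / C1 B, the log2 fold change of Cct4 was -0.57.

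CEL-seq2 against MARS-seq again called only Cct6a among the 8, with a log2 fold change of -2.86 (SE 0.40, edgeR adjusted p = 5.32e-05), where 23.4% of all genes passed. The other 7 ran from -0.60 (Cct5) to 0.53 (Cct8). Drop-seq against SCRB-seq called 0 of 8 by edgeR, where 1.51% of all genes passed after adjustment, and 0 by DESeq2. At an unadjusted p below 0.05, for which no share of all genes is given, there were 0. The subunits' median log2 difference there was -0.47, against -0.09 for all genes, with Tcp1 at -0.74 (SE 0.38) as the lowest and Cct7 at 0.09 (SE 0.35) as the highest.

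Smart-seq / C1 against Smart-seq2 called 0 of 8 by edgeR, where 15.6% of all genes passed after adjustment. At an unadjusted p below 0.05, for which no share of all genes is given, there were 3 (Tcp1, Cct2 and Cct8). DESeq2 called 1, Cct2, again with no share of all genes given. All 8 estimates were above 0, with a median log2 fold change of 0.60 against 0.11 for all genes, and Cct2 came nearest at 0.95 (SE 0.32, edgeR adjusted p = 0.0501). This comparison moved with each C1 library. With 1 left out, the C1 arm is a single library that is assumed to vary like the other methods. Without Smart-seq / C1 A, 6 of 8 were called, from Cct7 at 0.87 to Tcp1 at 1.5, against 21.0% of 15715 genes. Without Smart-seq / C1 B, 0 of 8 were called, against 10.4% of 15727 genes, and 5 of the 8 estimates turned below 0, with Cct7 at -0.41.

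**Figure D2:**
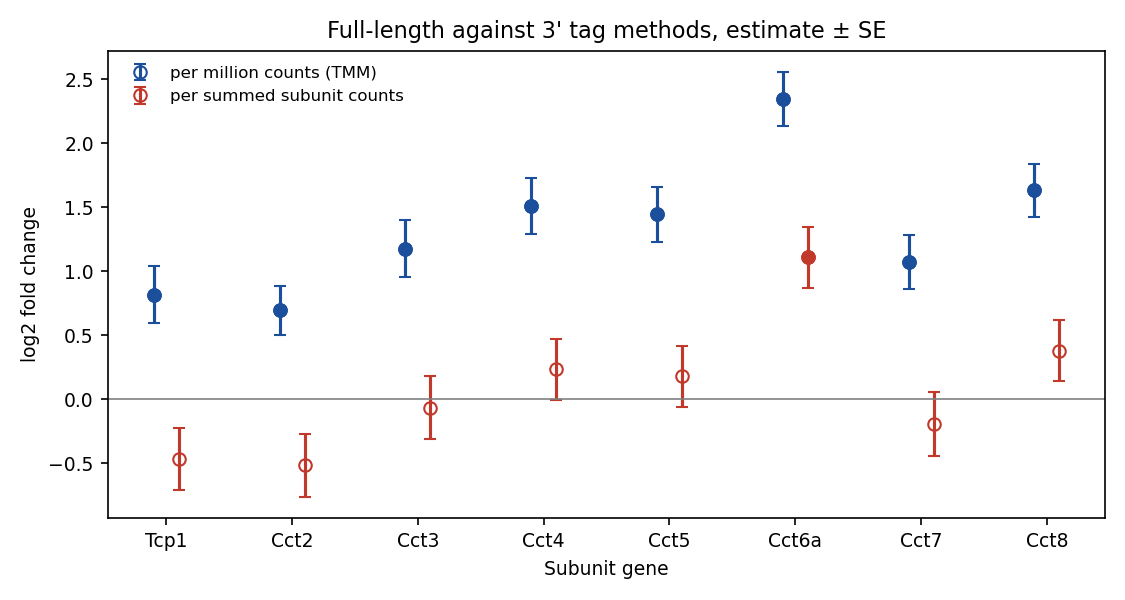
Log2 fold change of each subunit between full-length and 3′ tag methods with its standard error, per library total (blue) and per summed subunit counts (red). Filled points have an adjusted p below 0.05. All 8 are above 0 per library total, and relative to the complex only Cct6a, at 1.11, passes, which falls to 0.32 and does not pass without CEL-seq2.

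The ratio of subunits was read as the share of each in the library's summed subunit counts, which removes the level of the whole complex. Apart from Cct6a the shares kept within 2.18-fold from the lowest to the highest library, and the ratio fit over all 12 libraries called none of the other 7. Highest over lowest share was 1.58 for Cct3, 1.68 for Cct5, 1.82 for Cct4, 1.87 for Cct8, 1.95 for Tcp1, 1.98 for Cct2 and 2.18 for Cct7. For Cct6a it was 17.0, and 1.87 with both CEL-seq2 libraries left out. In this fit the summed subunit counts served as library size, and the joint edgeR test called 1 of 8 subunits, against 56.2% of all genes. Cct6a passed with an adjusted p of 5.50e-05, while the adjusted p of the other 7 lay between 0.368 (Tcp1) and 0.939 (Cct3). Without both CEL-seq2 libraries the test called 0 of 8, with 42.8% of all genes called, and Cct6a had an adjusted p of 0.48. Without Smart-seq / C1 A the test called 3 of 8, adding Tcp1 and Cct2, with 70.8% of all genes called, and without Smart-seq / C1 B it called 2, adding Tcp1, with 61.8%. Power was limited on simulated counts, where this fit recovered 23 of 100 genes changed 2-fold and 84 of 100 changed 4-fold between full-length and tag methods. The simulation left 14093 genes unchanged and took its spread from TMM-scaled counts. The common biological coefficient of variation was 0.418 in the TMM fit and 0.489 in this one. Recovery in the data themselves may thus differ.

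**Figure D3:**
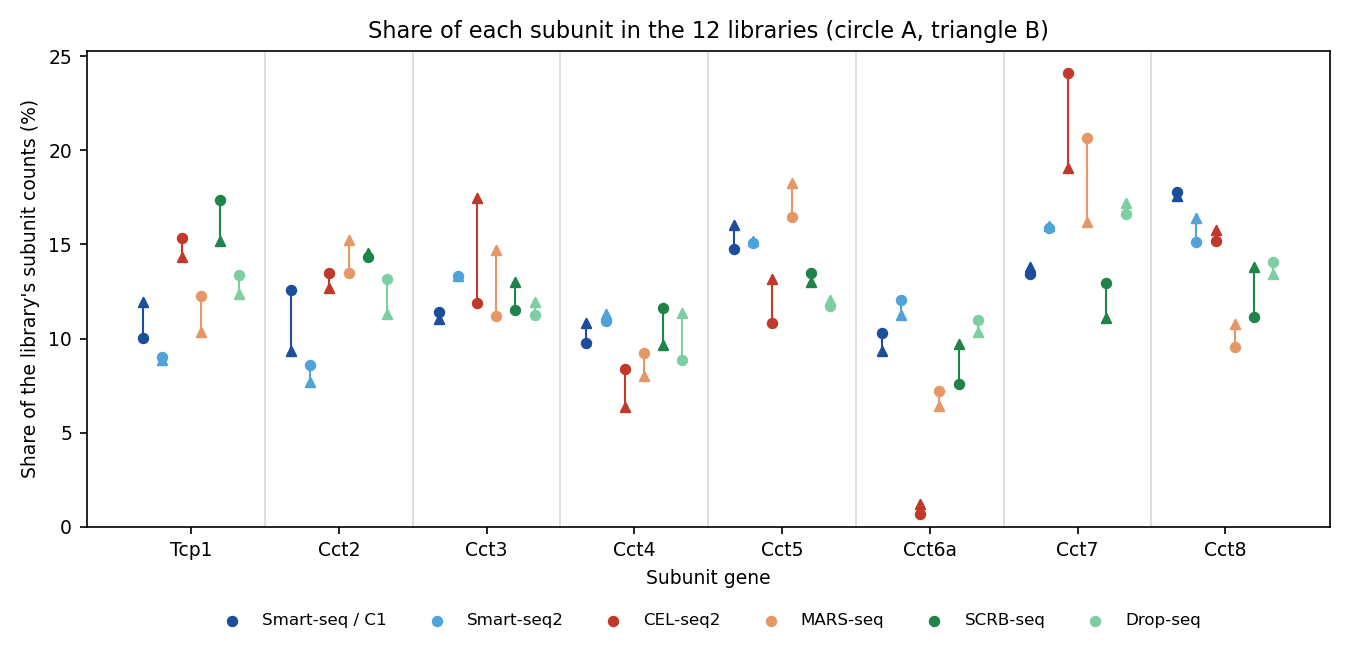
Share of each subunit in the library's summed subunit counts (%), for the 12 libraries, coloured by method, with a circle for replicate A and a triangle for B. The shares of Cct6a in CEL-seq2, 0.706% and 1.19%, lie apart from the 6.44% to 12.02% of the other 10 libraries.

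Cct6a made up 12.02% and 11.2% of subunit counts in Smart-seq2 A and B, while the Smart-seq / C1 libraries held 10.3% and 9.36%. Drop-seq gave 10.96% and 10.4%, SCRB-seq 7.60% and 9.71%, and MARS-seq 7.20% and 6.44%. In CEL-seq2 A it was 30 of 4251 UMIs, or 0.706% (95% Clopper-Pearson interval 0.477% to 1.01%), and in CEL-seq2 B 122 of 10268, or 1.19% (0.988% to 1.42%). Both intervals end far below the share of any other library, and such intervals cover counting error only. Set against the mean of the other 5 methods, the Cct6a share had a log2 fold change of -3.29 in CEL-seq2 (edgeR adjusted p = 5.88e-06), in a fit that called 32.5% of all genes. Between in vitro transcription and PCR its share changed by -1.91 (SE 0.30, edgeR adjusted p = 0.000495), and between CEL-seq2 and MARS-seq by -2.83 (SE 0.44, 0.000245). Cct6a was the only subunit called in either, against 14.9% and 16.8% of all genes. In the contrast of full-length with tag methods it was 1.11 (SE 0.24, edgeR adjusted p = 0.000853), where 1.66% of all genes were called higher and 42.3% either way. Both broader contrasts rested on CEL-seq2. Without its libraries the Cct6a share differed by 0.32 between full-length and tag methods (edgeR adjusted p = 0.363) and by -0.50 between MARS-seq and the PCR methods (0.418), and neither contrast called a subunit, against 39.0% and 7.44% of all genes. The part of the assembly gap in the low counts of CEL-seq2 was not tested.

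For single shares the design allows an exact permutation test, chosen after the data were seen: the share of variation between methods was compared over all 10395 ways to divide 12 libraries into pairs (one-sided, 8 tests, unadjusted; the shares sum to 100%, so the tests are not independent, and the smallest possible p is 9.62e-05). This test asks only whether replicates of a method resemble each other. It gave p = 0.000673 for Cct6a, 0.000962 for Cct8, 0.00346 for Cct5, 0.00375 for Tcp1, 0.022 for Cct7, 0.0225 for Cct2, 0.12 for Cct4 and 0.516 for Cct3. With Cct6a left out of the sum, Cct8 (0.000577), Cct5 (0.00135) and Tcp1 (0.00481) kept the smallest exact p. Between 89.8% (Cct5) and 97.7% (Cct6a) of the sum of squares of these 4 shares lay between methods. Over the 8 UMI libraries alone, with 105 divisions and a smallest possible p of 0.00952, the exact p was 0.00952 for Cct6a, 0.019 for Cct8, 0.0286 for Tcp1 and 0.0762 for Cct5, and with Cct6a left out of the sum it was 0.019 for Tcp1 and Cct5 and 0.0571 for Cct8. Of Cct8, Cct5 and Tcp1, Tcp1 alone was below 0.05 in each of these sets, and the fit across all genes called none of the 3.

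Cct8 held the highest share in Smart-seq / C1, at 17.7% ± 0.148 (SD, n = 2). Smart-seq2 followed with 15.8% ± 0.890, CEL-seq2 with 15.5% ± 0.418 and Drop-seq with 13.8% ± 0.453, and SCRB-seq (12.5% ± 1.88) and MARS-seq (10.2% ± 0.886) were lowest. The step from MARS-seq to either read method was wider than the spread within them, while Smart-seq2 and CEL-seq2 overlapped. Cct5 was highest in MARS-seq, at 17.4% ± 1.26 (SD, n = 2), followed by Smart-seq / C1 with 15.4% ± 0.934 and Smart-seq2 with 15.1% ± 0.0687, then 13.2% ± 0.362 in SCRB-seq, 11.996% ± 1.63 in CEL-seq2 and 11.9% ± 0.235 in Drop-seq. MARS-seq was thus lowest for Cct8 and highest for Cct5. Tcp1 ran the other way from Cct8 between read and tag methods, from 8.96% ± 0.0993 (SD, n = 2) in Smart-seq2 to 16.3% ± 1.53 in SCRB-seq. Its shares were 10.99% ± 1.39 in Smart-seq / C1, 11.3% ± 1.36 in MARS-seq, 12.9% ± 0.740 in Drop-seq and 14.9% ± 0.711 in CEL-seq2.

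Cct2 took 8.14% ± 0.651 (SD, n = 2) in Smart-seq2 and 10.96% ± 2.29 in Smart-seq / C1, and 12.2% ± 1.30 (Drop-seq) to 14.4% ± 0.164 (SCRB-seq) in the tag methods. Smart-seq / C1 A, at 12.6%, overlapped the tag libraries. Cct7 ranged from 11.998% ± 1.31 (SD, n = 2) in SCRB-seq to 21.6% ± 3.59 in CEL-seq2, where its replicates, 24.1% and 19.0%, differed more than the 2 read methods did from each other. Cct4 took 7.38% ± 1.40 in CEL-seq2 and 8.63% ± 0.838 in MARS-seq, against 10.1% ± 1.77 to 11.1% ± 0.268 in the other 4 methods. Cct3 had no order beyond replicate spread: CEL-seq2 A and B alone, at 11.9% and 17.4%, spanned most of its range. In the contrast of full-length with tag methods the log2 change of the share was -0.51 (SE 0.25) for Cct2, -0.47 (SE 0.24) for Tcp1, 0.38 (SE 0.24) for Cct8, 0.24 (SE 0.24) for Cct4, 0.18 (SE 0.24) for Cct5, -0.19 (SE 0.25) for Cct7 and -0.07 (SE 0.25) for Cct3. None of these 7 passed in edgeR, and DESeq2 called Cct2 (adjusted p = 0.0275) and Tcp1 (adjusted p = 0.0414) besides Cct6a. EdgeR called 42.3% of all genes in this contrast. No such share is given for DESeq2, so its calls are a description.

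Read counts can be set per transcript length, which makes levels of different subunits comparable within the read libraries. On that scale, as shares of the length-scaled sum, Cct5 was highest in Smart-seq / C1 (17.6% ± 1.10, SD, n = 2) and in Smart-seq2 (17.3% ± 0.0891). Cct8 came second in Smart-seq / C1, at 16.02% ± 0.106. In Smart-seq2, Cct3 (14.7% ± 0.0135), Cct8 (14.2% ± 0.814) and Cct7 (14.1% ± 0.0710) followed within the spread of Cct8. Tcp1 was lowest in Smart-seq2, at 7.75% ± 0.0812, while Cct6a (9.23% ± 0.590) and Tcp1 (9.52% ± 1.22) did not differ beyond their spread in Smart-seq / C1. All 8 subunits thus lay within a few-fold of each other per length.

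The whole composition can be compared by the percentage points of subunit counts that would have to move to turn one library into another. Replicates of a method differed by a median of 5.60 points (range 1.84 to 8.92 over 6 pairs). Libraries of the 2 read methods differed by 7.28 points (6.83 to 7.63 over 4 pairs), inside the replicate range over all methods. Replicates of the read methods themselves were closer, at 4.72 points between the C1 libraries and 1.84 between those of Smart-seq2. All 4 cross-method pairs were wider than both. Tag libraries of different methods differed by 12.8 points (7.06 to 17.7 over 24 pairs), and read from tag libraries by 12.7 points (7.74 to 20.4 over 32 pairs). These medians were alike, but both include CEL-seq2, where Cct6a was nearly missing. CEL-seq2 libraries lay 11.6 to 17.7 points from other tag methods and 16.1 to 20.4 from read libraries. Without CEL-seq2, the distances were 7.06 to 13.1 between tag methods and 7.74 to 15.4 between read and tag libraries. Counting error at low UMI counts is part of the tag distances, and MARS-seq replicates alone differed by 8.33 points. The most even pair was Cct3 and Cct7 in the 4 read libraries, where the log2 ratio of their counts stayed within a range of 0.0883, but across the tag libraries the same ratio spanned 1.25.

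In UMI counts the ratios varied among cells somewhat more than counting alone would give. For each cell with at least 20 subunit counts, the variance of the 8 shares was divided by its expectation under multinomial sampling, where 1 means sampling of counts alone. The ratios were 1.28 and 1.49 for SCRB-seq A and B, 1.77 and 2.16 for CEL-seq2, 1.93 and 1.97 for Drop-seq, and 2.45 and 2.24 for MARS-seq. Both SCRB-seq libraries were lowest. Whether the excess over 1 came from the cells or from library preparation was not tested. By subunit, the ratio in SCRB-seq A ran from 0.845 for Tcp1 to 2.00 for Cct6a. Reads are not independent molecules, since they include PCR duplicates, so the same ratio is above 1 in read libraries by construction. It was 29.5 and 48.4 for Smart-seq / C1, while Smart-seq2 gave 17.5 and 19.5, values that are not on the scale of the UMI libraries.

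The spread of a subunit's share beyond UMI sampling was given as a coefficient of variation over cells. In CEL-seq2 B, the UMI library with most subunit counts per cell, it was 0.0623 for Tcp1, 0.103 for Cct4, 0.129 for Cct2, 0.133 for Cct5, 0.143 for Cct8, 0.177 for Cct7, 0.240 for Cct3 and 0.662 for Cct6a. In SCRB-seq B the same values ran from 0.0507 (Cct5) to 0.138 (Cct7). In a Smart-seq2 A cell the share of Cct6a ran from 7.93% to 16.3% with a median of 12.003%. In CEL-seq2 A the median cell had no Cct6a count and the highest share was 2.84%, and in CEL-seq2 B the median was 0.946% and the highest 3.64%.

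At full depth most cells had counts of the whole set. All 8 subunits had a count in every cell of the 4 read libraries, of SCRB-seq B and of Drop-seq B, in 38 of 39 cells of SCRB-seq A, 40 of 42 of Drop-seq A, 25 of 29 and 35 of 36 of MARS-seq, 15 of 34 of CEL-seq2 A and 34 of 37 of CEL-seq2 B. In CEL-seq2 A, Cct6a had a count in 15 of the 34 cells. With every cell thinned to 10000 counts, none being shallower, all 8 were found in 6 of 34 cells (17.6%) of CEL-seq2 A, 12 of 37 (32.4%) of CEL-seq2 B, 12 of 29 (41.4%) of MARS-seq A, 30 of 42 (71.4%) of Drop-seq A, 27 of 36 (75.0%) of MARS-seq B and 86.7% to 100% of the cells of the other 7 libraries. At that depth Cct6a was found in 7 of 34 cells (20.6%, exact interval 8.70% to 37.9%) in CEL-seq2 A and 14 of 37 (37.8%, 22.5% to 55.2%) in CEL-seq2 B, against 86.1% to 100% in the other libraries. Free RNA between cells was not measured, since no cell type lacking the complex was sampled.

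**Figure D4:**
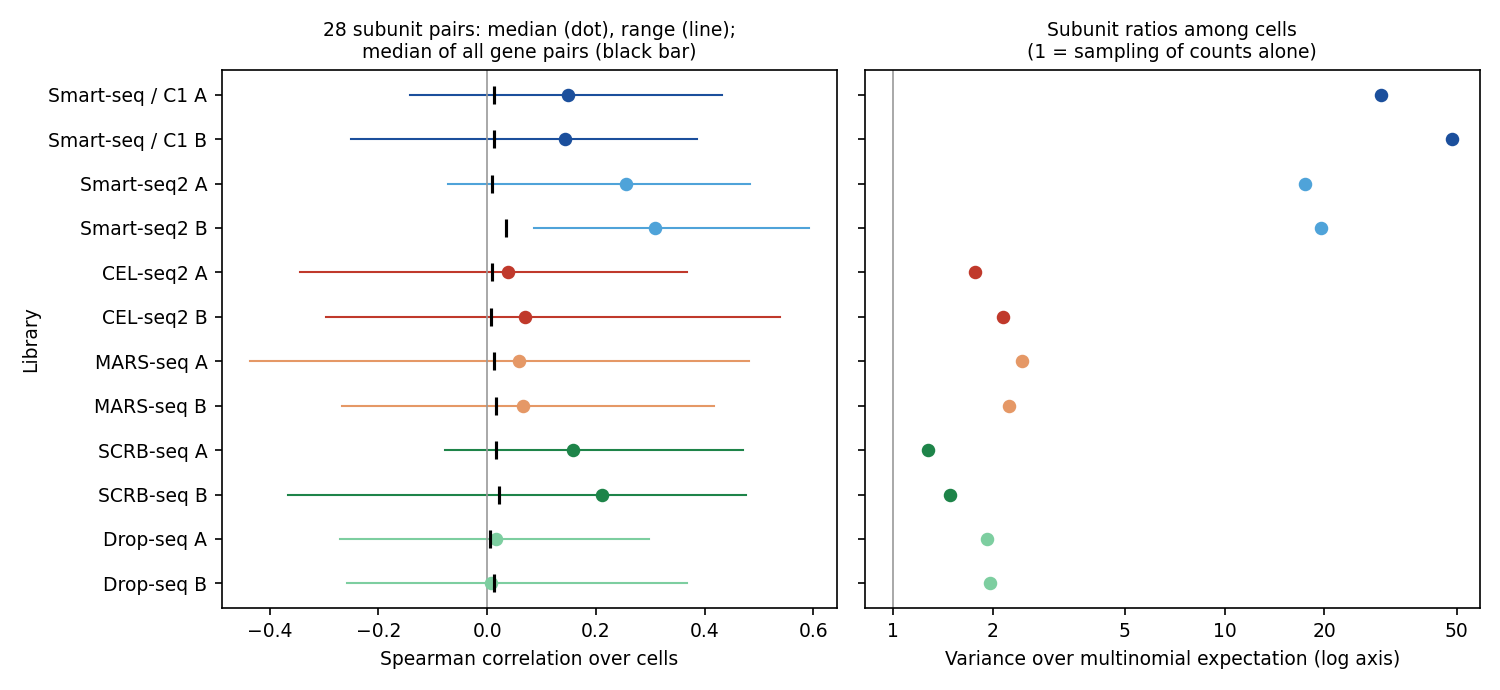
Left, Spearman correlation over cells of the 28 subunit pairs in each library, with the median as a dot, the range as a line and the median of all pairs among 1844 well-counted genes as a black bar. Right, variance of subunit shares over multinomial expectation (log axis), which is 1.28 to 2.45 in UMI libraries; the 17.5 to 48.4 in read libraries, where reads include PCR duplicates, are not on the same scale.

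Correlations of subunit levels over cells were modest in Smart-seq2, SCRB-seq and Smart-seq / C1 and near the background in Drop-seq. The median Spearman correlation of the 28 pairs, computed on CPM over the cells of 1 library, was highest for Smart-seq2 A and B, at 0.256 and 0.309. SCRB-seq gave 0.159 and 0.212, Smart-seq / C1 0.149 and 0.143, MARS-seq 0.0586 and 0.0668, CEL-seq2 0.0392 and 0.0698, and Drop-seq 0.0169 and 0.00718. Over all pairs of the 1844 genes that averaged 1 count or more per cell in each library, the medians were 0.00511 to 0.0353. The subunit median lay above the median of its library's own background in 11 of the 12 libraries. Drop-seq B, with 0.00718 against 0.0125, was the exception. Several of the 11 were near the middle of the background pairs. The subunit median stood at percentile 52.8 in Drop-seq A, 56.3 and 63.2 in CEL-seq2, and 59.1 and 61.2 in MARS-seq. The rest of the 11 ran from 78.4 (SCRB-seq A) to 96.8 (Smart-seq2 B). The background pairs were not matched to the subunits in level, and the part of level in these percentiles was not tested. Points are 29 to 80 cells that share a library and a depth scaling, and the values are a description. In Smart-seq2 B all 28 pairs were above 0, in Drop-seq B 15 of 28. At a median of 67 to 97.5 subunit UMIs per cell in MARS-seq and Drop-seq a weak correlation is no finding.

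The pair of Cct5 and Cct7, singled out after its values were seen, was above 0 in 12 of 12 libraries, with a median of 0.278 (0.0689 to 0.539). The lowest median was that of Cct3 and Cct7, at 0.0192. The promoters of Cct5 and Cct7 are printed because their counts moved together, as RefSeq sequences of 300 bases on GRCm38.p6 around a transcription start. Capitals mark matches to TTCNNGAA, a core of the heat shock element, in Cct5 and to CCAAT in either orientation in Cct7.
Cct5, chr15:31601797-31602096, minus strand: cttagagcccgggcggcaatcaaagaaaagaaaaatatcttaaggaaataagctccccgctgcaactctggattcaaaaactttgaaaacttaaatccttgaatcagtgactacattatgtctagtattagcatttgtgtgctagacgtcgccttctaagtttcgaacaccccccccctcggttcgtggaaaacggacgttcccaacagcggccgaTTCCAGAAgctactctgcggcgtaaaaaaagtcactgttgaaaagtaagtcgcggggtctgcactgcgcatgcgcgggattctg
Cct7, chr6:85451255-85451554, plus strand: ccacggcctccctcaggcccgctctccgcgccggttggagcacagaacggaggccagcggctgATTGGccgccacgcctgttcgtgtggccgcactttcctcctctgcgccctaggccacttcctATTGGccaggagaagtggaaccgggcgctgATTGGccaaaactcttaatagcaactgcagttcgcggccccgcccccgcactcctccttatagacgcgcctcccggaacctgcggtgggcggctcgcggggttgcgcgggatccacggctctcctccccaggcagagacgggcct
Promoters were found for 7 of the 8 subunits. Cct2 and Cct5 had more than 1 entry, and a gene was counted if any entry matched, while the shares are per promoter. The Cct5 entry not printed, chr15:31601490-31601789, held none of the motifs. In Cct2 the GAANNTTC and CCGGAAG matches lay in different entries. Searched on both strands, TTCNNGAA was in 2 (Cct5 and Cct6a; 8.52% of 32851 promoters of that length), GAANNTTC, its other phase, in 1 (Cct2; 7.86%), CCGGAAG, a core of ETS sites, in 3 (Cct2, Cct8 and Tcp1; 8.86%), CCAAT in 4 (Cct3, Cct6a, Cct7 and Tcp1; 37.4%) and TATAAA in 0 (13.6%). No motif searched was in all 7, and Cct5 and Cct7 had none in common. A match is a run of letters and not a bound site.

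The genes most like the complex over cells were found by the Spearman correlation of each of the 1844 genes with the summed subunits, as the median over 12 libraries. The 8 highest non-members were Serbp1 (0.408), Lyar (0.382), Fkbp4 (0.344), Cnbp (0.339), Eif5a (0.335), Rbm8a (0.331), Psmc5 (0.318) and Cfdp1 (0.315). The median over all non-members was 0.0477. Genes were not matched in level, and the part of level in these ranks was not tested. Serbp1 binds ribosomes, Eif5a is a translation factor, Fkbp4 is a co-chaperone of Hsp90, and Psmc5 is an ATPase of the proteasome. Each of the 8 was above 0 in 10 or 11 of the 12 libraries, which partly follows from picking them by their median over these libraries. Their lowest values in a library ran from -0.517 (Lyar) to -0.0269 (Serbp1). Each subunit was set against the sum without its own count. So measured, Cct5 ranked 4, Tcp1 19, Cct7 25, Cct2 40, Cct4 55, Cct3 131 and Cct8 367, while Cct6a fell under the minimum count. The summed level varied between cells of a library by a coefficient of variation of 0.0932 (CEL-seq2 B) to 0.276 (MARS-seq A) beyond counting.

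Cell-to-cell variation of single subunits was compared with that of other genes of like level, after thinning cells to 10000 counts. The squared coefficient of variation of each gene was set against a trend on the mean, over 2661 genes averaging 0.2 counts or more, and departures were averaged over methods with limma. None of the 8 subunits passed after adjustment, against 4.70% of all genes. An unadjusted p below 0.05, for which no share of all genes was computed, was found for 4, all below the trend. These were Cct5 at -0.32 on the log2 scale (SE 0.10, limma adjusted p = 0.0509), Cct8 at -0.29 (SE 0.10, 0.0696), Cct2 at -0.25 (SE 0.09, 0.137) and Tcp1 at -0.28 (SE 0.11, 0.158). Cct5, Cct8 and Cct2 lay below the trend in 11 of 12 libraries each and Tcp1 in 9. These counts have no share over all genes beside them and are a description. Cct7 was at 0.08 and Cct4 at 0.00285. With the trend fitted by least squares, which a robust trend replaced, Cct5 (limma adjusted p = 0.0210) and Cct8 (0.0336) passed. Their calls thus depend on the trend.

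**Figure D5:**
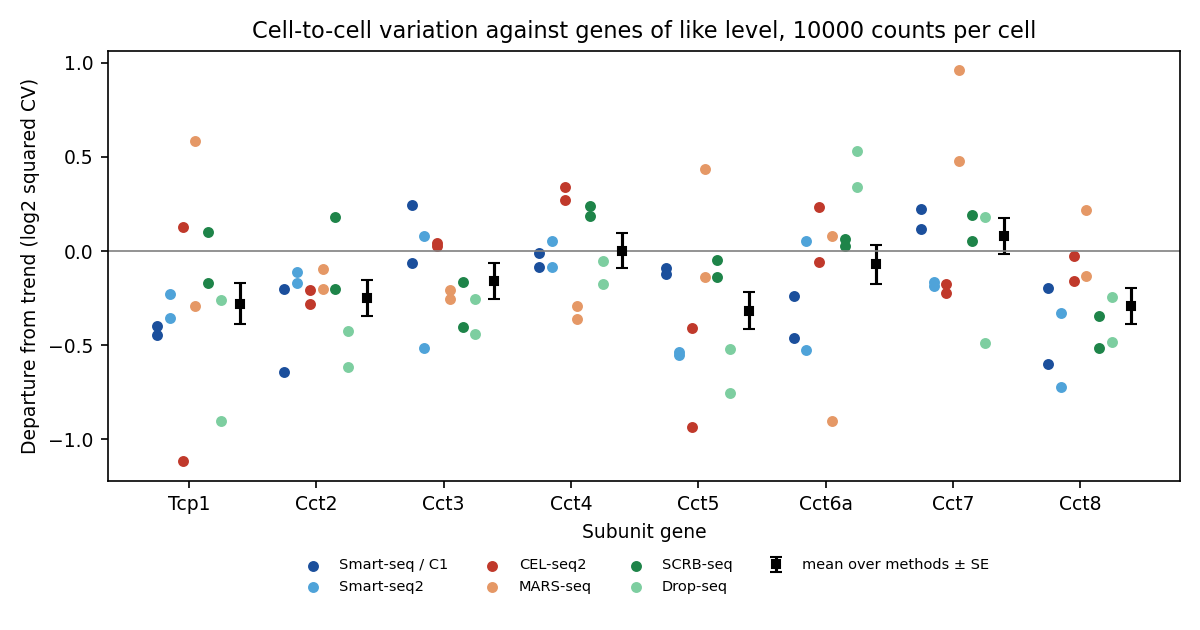
Departure of each subunit's squared coefficient of variation over cells from the trend of genes of like level (log2), 1 point per library coloured by method, with the mean over methods and its SE as a black square. Cct5, Cct8, Cct2 and Tcp1 have means of -0.25 to -0.32, and Cct4, Cct6a and Cct7 lie near 0.

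The partners and clients of the complex went both ways between full-length and tag methods. Their counts stand beside 25.6% of all genes tested that were higher and 23.2% that were lower. Of 6 prefoldin subunits 1 rose and 2 fell, Pfdn2 with a log2 fold change of -1.71 (SE 0.23, edgeR adjusted p = 5.78e-06) and Pfdn5 with -1.11 (SE 0.21, 0.000283), and the list's median was -0.14. Of 4 phosducin-like and related cofactors 2 rose and 1 fell, with Pdcl at 1.26 and Pdcd5 at -1.73. Of 6 tubulin folding cofactors 1 rose (Tbce, 1.64) and 1 fell (Tbca, -1.24), while the most abundant, Tbcb, was at 0.09 and did not pass. The cofactors thus went both ways, beside medians of 1.31 for the subunits and 0.21 for all genes.

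In the same contrast, the counts of the next lists again stand beside 25.6% of all genes tested that were higher and 23.2% that were lower. Of 10 actin and tubulin genes 3 rose and 3 fell: Actb, beta actin, rose by 1.10 on the log2 scale, Actg1, gamma actin, changed by -4.41 and Tubb2b by -2.99. Of 10 WD40 and other clients 6 rose and 1 fell, with Hdac3 at 1.94, Gnb1 at 0.56 and Gnb2 at -1.68, and the list's median was 0.69. Among relatives of the chaperonin 3 of 5 were tested; Bbs10 rose by 1.98 and Cct6b (1.30) and Mkks (0.49) did not pass. The mitochondrial chaperonin, a separate folding machine, was at -0.31 for Hspd1, which did not pass, and at -2.50 for its cochaperonin Hspe1, which fell. Of 5 other cytosolic chaperone genes 1 rose, Hspa8 at 1.92, and 1 fell, Hsp90aa1 at -1.96, while Hsp90ab1 at 0.43 did not pass. Hsf1, the heat shock transcription factor on the same list, rose by 1.01 and is named after its value was seen.

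Between CEL-seq2 and MARS-seq, where Cct6a fell, 2 genes of these lists fell further: Actg1 changed by -4.82 (SE 0.42, edgeR adjusted p = 5.14e-07) and Hspa8, the constitutive Hsc70, changed by -5.86 (SE 0.57, 1.35e-06). Of the 10 actin and tubulin genes 5 fell and 1 rose there, where 12.4% of all genes tested fell and 23.4% passed either way, Tuba1c with -2.59 and Actb with -1.48 among those that fell. Of the 6 prefoldins 3 fell, Pfdn6 at -2.37 and Pfdn1 at -1.59 among them, and 1 rose, Pfdn2 at 1.25. Cct6a was thus not the only gene of this pathway whose level in CEL-seq2 was over 4-fold below that in MARS-seq.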

How the data were processed

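The deposited table holds whole-number counts per gene and cell for 583 cells. Per the deposited notes, the authors made the UMI counts with the Drop-seq pipeline and STAR 2.4.0 at default options; per the submitters' processing notes the build was mm10 and bcl2fastq was used. The counter of the Smart-seq and Smart-seq2 read counts is not given in the sources used here. Counts were summed per library after leaving out 92 spike-ins; 37607 of 38924 gene IDs matched GENCODE M21. Libraries were grouped by the method and replicate letter in their titles.

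The tests were edgeR 4.0.16 quasi-likelihood fits (R 4.3.3) with TMM scaling, or with the summed subunits as library size, 1 mean per method and orthogonal contrasts, threshold 0.05 after Benjamini-Hochberg adjustment over 14293 genes; limma 3.58.1 for variation; and exact permutation. Alternatives included DESeq2 1.42.0, other filters and scalings, and leaving out each library. The robust trend for variation replaced a least-squares one, which made 36 rather than 11 false calls among 2436 unchanged genes on simulated cells. The simulated TMM fit recovered 84 of 100 genes changed 4-fold between full-length and tag methods. Members and lists were chosen with earlier results of these data known. All 8 subunits are named; of other lists, the 2 genes of smallest p and the 1 of highest mean level per comparison, and the 8 genes most alike. Doublets were not called; leaving out cells of over 2 times the median count was an alternative.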

Additional observations from a re-analysis of the deposited data

Results flagged for a closer look

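Among groups of 4 libraries and of 8, the highest or lowest library was set against the rest by Dixon's test, which chance passes in about 1 of 20 groups. Of 68 groups of subunit values 6 passed, or 8.82%. Among the 4 full-length libraries, 4 of these were Smart-seq / C1 B: Tcp1 at 2045 CPM (others 710.4 to 723), Cct5 at 2743 (1064 to 1212), Cct8 at 3006 (1193 to 1310) and the summed subunits at 17089 (7224 to 7994). These 4 values share a library and are not independent. Cct2 in MARS-seq B was at 665 among the in vitro transcription libraries (others 465.6 to 492.9). Cct6a in SCRB-seq B was at 473 among the PCR tag libraries (others 402 to 413).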

How the results depend on the processing

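With each of 12 libraries left out in turn, the subunits that differed between methods stayed at 8 of 8, as did those called between full-length and tag methods. Calls ranged from 0 to 6 for Smart-seq / C1 against Smart-seq2, from 1 to 2 for in vitro transcription against PCR, from 1 to 3 for the joint test of the ratio (3 without Smart-seq / C1 A: Cct6a, Tcp1 and Cct2; 2 without Smart-seq / C1 B: Cct6a and Tcp1), from 1 to 2 for the ratio between full-length and tag methods (adding Cct2 or Tcp1 without Smart-seq / C1 A or B) and from 0 to 1 for variation (Cct5 without CEL-seq2 B, MARS-seq B or Drop-seq A). Estimates near 0 changed sign: Cct6a between Smart-seq / C1 and Smart-seq2 (-0.34 to 0.77) and between Drop-seq and SCRB-seq (-0.15 to 0.0236), the Cct3 share (-0.13 to 0.00898), and the variation of Cct4 (-0.00880 to 0.0143) and Cct6a (-0.15 to 0.00950). DESeq2 size factors and the DESeq2 test each called 1 subunit between Smart-seq / C1 and Smart-seq2 and put Cct6a between Drop-seq and SCRB-seq at 0.12; the DESeq2 test called 3 in the ratio contrast. Means over cells of log2 values with limma called 2 in CEL-seq2 against MARS-seq and 2 in the joint ratio test, adding Cct8 in both. Without a C1 library, shares of all genes stand above for Smart-seq / C1 against Smart-seq2 and for the joint ratio test. None is given for the other fits with 1 library left out, for DESeq2 or for limma on means over cells. Those counts of calls are a description. The 4 read libraries alone called 0 in the joint ratio test. Without both CEL-seq2 libraries, chosen after seeing the data, 0 were called in the joint ratio test and 0 in the ratio between full-length and tag methods. For variation, thinning to 5000 counts (Tcp1), leaving out cells of over 2 times the median count (Cct5) and a minimum mean of 0.5 (Cct5) each called 1. The least-squares trend, which the robust trend replaced, called 2 and put Cct4 at -0.0342. It was kept as an alternative that was not planned. The Drop-seq variance ratio was 1.98 with at least 50 subunit counts per cell, 1.89 without the largest cells and 1.88 without Cct6a, which was also chosen after seeing the data. Without Cct6a the median pair correlation came to 0.232 (Smart-seq2), 0.133 (Smart-seq / C1) and 0.0849 (MARS-seq), and joining Drop-seq barcodes 1 base apart gave 0.0242. The cause of these changes was not tested. The replicate letters share only a letter: over genes, differences A minus B correlated from -0.0994 to 0.0884 between methods, with 0 of 15 over 0.1, and with the replicate block 8 of 8 subunits were still called between full-length and tag methods and 0 between Smart-seq / C1 and Smart-seq2. Depth limits the ratios most in MARS-seq A, with 1931 subunit UMIs, and Drop-seq B, with 2439.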
